A study of Mus musculus with 13 samples.

Results

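Pericytes of embryonic mouse back skin were picked from single-cell libraries by their transcripts. A kept cell counted as a pericyte when at least 3 of the 6 mural genes Rgs5, Cspg4, Kcnj8, Notch3, Pdgfrb and Abcc9 were detected, Rgs5 reached at least 2 UMIs (unique molecular identifiers, the counted transcripts), and at most 1 of the endothelial genes Pecam1, Cdh5 and Cldn5 was seen. This took 1302 of the 51655 cells that passed the quality limits at E14.5 and E16.5. The whole series holds 86507 kept cells, and of its 34852 kept P0 cells, which came from epidermis, 1 met the marker limits.

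Both ages were sampled in WT (C57BL/6) embryos and in Grhl3-/- littermates, with 2 libraries of whole back skin for each genotype and age, 8 in all. Grhl3 is a transcription factor of the surface epithelium, and the null allele is present in every cell of the Grhl3-/- embryos, so pericytes carry it too. All Grhl3-/- embryos had spina bifida, and the skin was taken anterior to the defect. Cells were released with Dispase and Accutase, and each library gave between 57270821 and 79416872 UMIs by the 10x 3' v2 chemistry.

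Pericytes are mural cells that wrap capillaries and small venules inside the endothelial basement membrane. Endothelial cells recruit them by secreting PDGF-B, which the receptor Pdgfrb on the pericyte receives, and Notch3 signalling helps to keep the mural state. Along arterioles they grade into vascular smooth muscle, whose actin, myosin and calponin genes let the wall contract.

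The members were counted first in every library. The 4 E14.5 libraries held 116 and 99 pericytes in WT and 83 and 109 in Grhl3-/-. At E16.5 the numbers were 277 and 198 in WT and 183 and 237 in Grhl3-/-. Median depth per pericyte lay between 10270 and 14361 UMIs at E14.5 and between 7812 and 9121 at E16.5, so the younger cells were read more deeply. In single-cell counts of this kind free RNA from broken cells also enters every droplet.

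Limits of the rule left cells on both sides. Of the members, 180 had exactly 3 of the mural genes, while 125 other cells had 2 of them with Rgs5 high enough. Rgs5 stood at exactly 2 UMIs in 72 members, and 136 cells with 3 or more mural genes had 1 UMI of it. A further 844 cells had 3 or more mural genes and no Rgs5 UMI. All 6 mural genes were seen in 243 members, the median member held 11 Rgs5 UMIs, and 1230 members held none of the endothelial genes.

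The label was then checked on genes that the rule did not use. The values in this paragraph are CPM, the UMIs of a gene per 1000000 UMIs summed over the cells of one kind in a library, given as mean ± SD over the 8 libraries. Cox4i2, a subunit of cytochrome oxidase found in mural cells, stood at 1704 ± 189 in pericytes, 4.21 ± 1.25 in endothelial-like cells and 19.7 ± 2.19 in fibroblast-like cells. Higd1b, another pericyte marker, stood at 154 ± 94.3 against 0.436 ± 0.502 and 0.238 ± 0.187. The Notch target Heyl stood at 180 ± 44.6 against 0.797 ± 0.471 and 5.93 ± 2.10. The 1458 endothelial-like cells had at least 2 of the 3 endothelial genes and the 27651 fibroblast-like cells at least 4 of 6 dermal genes. Both kinds also had to be free of Sox10, Ptprc and Epcam UMIs, a filter not applied to pericytes, where these genes summed to 1.39 to 14.48 CPM. Fibroblast-like cells had no Rgs5 UMI and at most 1 endothelial gene, and endothelial-like cells fewer than 2 Rgs5 UMIs and at most 1 mural gene. Comparisons with these cells therefore rest in part on the filters. Since the rule chose these cells, the following counts describe them and test nothing. In edgeR's quasi-likelihood test 6483 of 12655 genes (51.2%) differed between pericytes and fibroblast-like cells, and 5442 of 9541 (57.0%) between pericytes and endothelial-like cells. Cox4i2, Higd1b and Heyl belong to a list of other pericyte markers. Of its 19 genes tested against fibroblast-like cells 17 were higher in pericytes and none was lower. Against endothelial-like cells 15 of 16 were higher and Gja4 was lower.

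The rule does not part pericytes from contractile mural cells. Acta2, the smooth muscle actin, stood at 2707 ± 932 CPM in the members, 15.6 ± 6.62 in endothelial-like cells and 69.0 ± 42.6 in fibroblast-like cells (mean ± SD, n = 8 libraries). Myh11, smooth muscle myosin heavy chain, stood at 97.3 ± 72.0 CPM in the members. The name pericytes below therefore covers cells with and without a smooth muscle transcript set.

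The first WT library at E14.5 stood apart and has to be read with that in mind. In it 40 of 116 members (34.5%) held at least 5 UMIs of Vtn, which encodes the matrix protein vitronectin. The shares in the other libraries ran from 2.41% to 14.1%, the second WT library at E14.5 being the highest of them. The transcription factors Foxf2 and Zic1 stood at 228 and 383 CPM in the Vtn-rich members, at 6.96 and 33.8 in the remaining ones, and at most 10.8 and 27.4 in the members of the other libraries that were not Vtn-rich. Over all members, no other library passed 11.4 CPM of Foxf2 and 45.8 CPM of Zic1. Acta2 went the other way, with 215 CPM in the Vtn-rich members and 3113 in the rest. Of a pair of trunk patterning genes, Hoxc6 stood at 4.56 CPM in them and 44.7 in the rest, against 38.1 to 52.4 in the members of the other libraries that were not Vtn-rich. Hoxc8 stood at 27.4 CPM in them and 55.7 in the rest, inside the 23.5 to 77.8 of those members elsewhere.

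**Figure D1:**
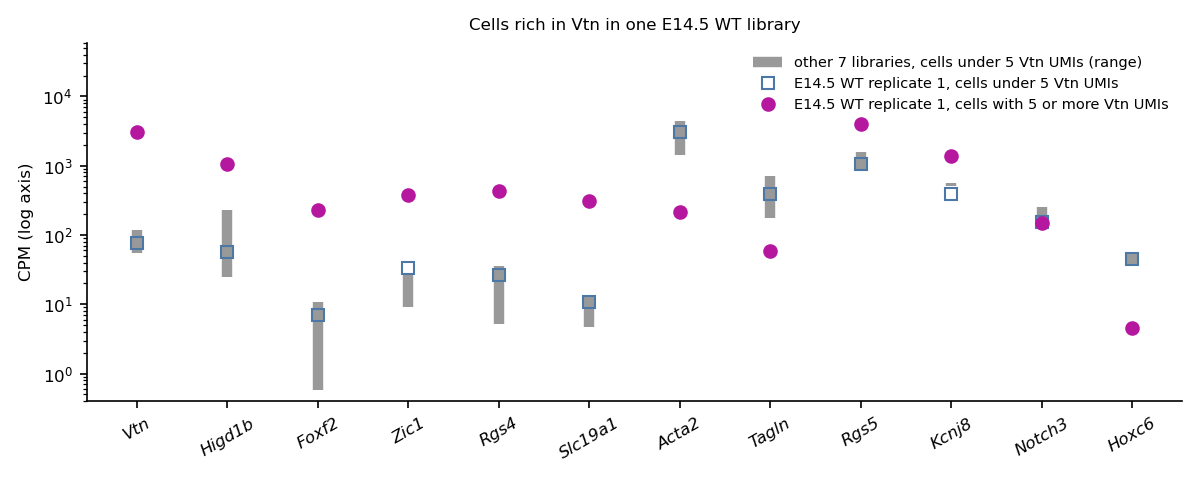
CPM on a log axis for genes in the Vtn-rich members of the first E14.5 WT library, in its remaining members, and as the range over the other 7 libraries, whose own Vtn-rich members were left out. Vtn, Foxf2 and Zic1 are high only in the Vtn-rich members among the 3 sets drawn, and Acta2 and Tagln are low there.

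Other cells of that library differed too. Its endothelial-like cells held 113 CPM of Mfsd2a and 39.0 CPM of Slco1c1, transporters known from vessels of the brain, whereas no other library passed 2.09 and 3.83. Of its kept cells 300 had at least 2 UMIs of the neuronal tubulin Tubb3 without Sox10 or Epcam, against 6 to 46 in the others. The origin of these cells was not tested. Several results below are also given without the Vtn-rich cells.

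Libraries also differed in sex transcripts. The Y-linked Ddx3y and Eif2s3y were present in 3 of 4 libraries at E14.5 and in 1 of 4 at E16.5, whereas the methods name a male and a female of each genotype at each age. They were present in 1 of 2 WT and both Grhl3-/- libraries at E14.5, and in no WT and the first Grhl3-/- library at E16.5, so the genotypes were unbalanced within each age too. Sex was not in the fits, and its part in the age and genotype differences was not tested. Grhl3 itself was read in Epcam-positive kept cells, because pericytes hardly express it. It stood at 39.2 and 47.6 CPM in WT and at 30.5 and 32.3 in Grhl3-/- at E14.5, and at 14.6 and 17.8 in WT and 8.67 and 5.70 in Grhl3-/- at E16.5. It was lower in Grhl3-/- at both ages but not absent, and whether the counted 3' end lies outside the deleted part is not given in the sources used here. Libraries are the replicates throughout, and with littermates of a few pregnancies the p-values measure only the spread between these samples.

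Pericytes made up a larger share of the kept cells at E16.5 than at E14.5. At E14.5 the share was 2.20% and 1.65% in WT and 1.36% and 1.56% in Grhl3-/-. It was 3.18% and 2.97% in WT and 3.37% and 3.65% in Grhl3-/- at E16.5, and the ages did not overlap. The exact 95% binomial interval of the lowest library was 1.08% to 1.68% and of the highest 3.21% to 4.14%, for counting error alone. The means were 1.69% ± 0.360 and 3.29% ± 0.289 (SD, n = 4 libraries each), a difference of 1.60 percentage points with a two-sided exact permutation p of 0.0286, the smallest that 4 against 4 libraries can give. Adjusted over a family of 8 such comparisons it was 0.114 in the exact permutation test, which misses 0.05. When every cell was thinned to 2000 UMIs and the rule applied again, the shares were 0.349% to 1.01% at E14.5 and 1.13% to 1.52% at E16.5. Cell shares also move with how well each kind of cell survives dissociation, whose part was not tested.

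The share of endothelial-like cells was between 1.68% and 2.94% at E14.5 and between 2.91% and 4.22% at E16.5, a difference of 1.33 percentage points (two-sided exact permutation p = 0.0571, adjusted 0.137). Pericytes per 100 endothelial-like cells came to 74.8 and 92.5 in WT and 60.6 and 93.2 in Grhl3-/- at E14.5. At E16.5 they came to 102 and 102 in WT and 90.2 and 86.5 in Grhl3-/-. The ages overlapped, and the log2 ratio differed by 0.26 (two-sided exact permutation p = 0.171, adjusted 0.229). It ran from 0.12 with a stricter rule for pericytes to 0.49 after thinning to 2000 UMIs, and was 0.14 without the first Grhl3-/- library at E14.5, and none of these passed 0.05.

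At E14.5 the Grhl3-/- shares lay below WT and at E16.5 above. Across both ages the Grhl3-/- libraries differed from WT by -0.0145 percentage points (two-sided exact permutation within age, p = 1.0, where 0.0556 was the smallest possible). The difference was -0.462 percentage points at E14.5 and 0.433 at E16.5. Without the first WT library the second, at 1.65%, still lay above the 1.36% and 1.56% of Grhl3-/- at E14.5. With the Vtn-rich cells left out of every library the E14.5 shares were 1.44% and 1.41% in WT and 1.33% and 1.46% in Grhl3-/-, so that the genotypes overlapped, with a difference of -0.0327 points. They also overlapped after thinning to 2000 UMIs, with 1.01% and 0.349% in WT and 0.393% and 0.588% in Grhl3-/-. The 2 comparisons within an age cannot pass 0.05 in an exact permutation test with 2 against 2 libraries.

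The share of dividing pericytes was lower in every E16.5 library than in any E14.5 library. A cell was called dividing when at least 2 of the 6 mitotic genes Mki67, Top2a, Cdk1, Birc5, Ccnb1 and Cenpf were detected after thinning to 2000 UMIs. That share was 25.9% and 33.3% in WT and 41.0% and 31.2% in Grhl3-/- at E14.5, and 24.6% and 22.2% in WT and 22.4% and 20.7% in Grhl3-/- at E16.5. The difference was -10.4 percentage points (two-sided exact permutation p = 0.0286, adjusted 0.114). Before thinning the shares were 54.3% to 83.1% and 40.9% to 45.1%. Members were chosen at full depth and thinned afterwards, so thinning does not undo a choice that favours deep cells. At E14.5 the median depth was 10270 to 14361 UMIs in pericytes and 7985.5 to 8901.5 in all kept cells. At E16.5 it was 7812 to 9121 in pericytes and 7473 to 8486 in all kept cells. The part of this choice in the dividing shares was not tested. With at least 3 of the genes detected the difference was -2.83 percentage points (two-sided exact permutation p = 0.286), so the size depends on the limit. Fibroblast-like and endothelial-like cells differed by -4.47 and -10.7 percentage points between the ages (two-sided exact permutation p = 0.0857 for each).

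**Figure D2:**
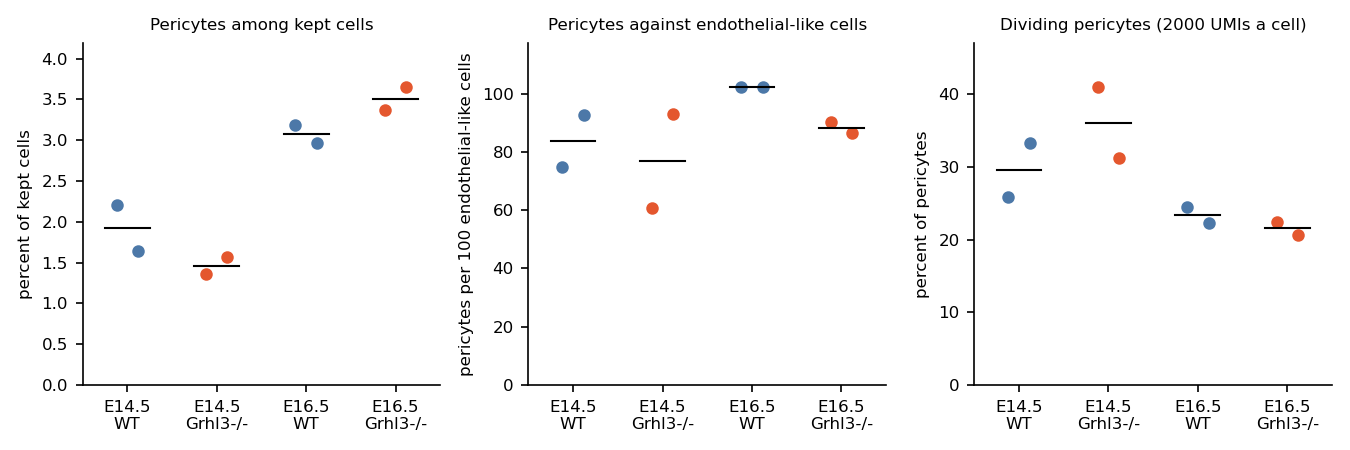
Each point is 1 library, by age and genotype: pericytes as percent of kept cells, pericytes per 100 endothelial-like cells, and percent of pericytes called dividing after thinning. The share of pericytes runs from 1.36% to 2.20% at E14.5 and from 2.97% to 3.65% at E16.5.

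For gene levels the UMIs of all pericytes of a library were summed, which gave 1054187 to 2390015 UMIs per library, and normalised CPM were computed with TMM factors. A sum cannot tell a change in every cell from a change in the mix of cells. Between the ages 1096 of 9824 genes were higher at E16.5 (11.2%) and 814 were lower (8.29%) in edgeR's quasi-likelihood test at an adjusted p under 0.05, over both genotypes.

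Contractile genes of smooth muscle rose with age in the fit over both genotypes, and many of these calls were lost with the WT libraries alone, as given below. Of the 19 tested genes of a contractile list 16 were higher at E16.5 and none was lower, with a median log2 fold change of 1.01 against 0.01 over all genes tested. Smtn, Myocd and Sncg were not called. Among all genes tested 11.2% were higher and 8.29% lower. A list of dissociation stress genes had 7 higher and 2 lower of 19 tested, with a median of 0.21. The part of dissociation stress in the contractile change was not tested. The list was drawn up with earlier results of the series known.

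Myh11 was read at 53.4 and 35.2 normalised CPM in WT and 25.4 and 19.2 in Grhl3-/- at E14.5, and at 153 and 126 in WT and 212 and 167 in Grhl3-/- at E16.5. Every E16.5 library lay above every E14.5 library, with a log2 fold change of 2.40 ± 0.15 (SE, edgeR adjusted p = 1.7e-07). Des, the intermediate filament desmin, stood at 116, 132, 144 and 122 normalised CPM at E14.5 and 348, 393, 362 and 396 at E16.5, WT libraries first. Its log2 fold change was 1.55 ± 0.09 (edgeR adjusted p = 6.8e-08). Mylk, the kinase that starts smooth muscle contraction by phosphorylating myosin light chain, rose by 1.36 ± 0.08 on the log2 scale (edgeR adjusted p = 1.7e-07), from 199 to 257 up to 538 to 585 normalised CPM. These genes did not overlap between the ages in either genotype. Of all genes tested 21.7% did not overlap between the ages, so non-overlap alone says little.

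Acta2 behaved differently within the genotypes. It stood at 2574 and 2437 normalised CPM in WT at E14.5 and 2706 and 2879 in WT at E16.5, whereas Grhl3-/- went from 1415 and 1644 to 4386 and 3734. Without the Vtn-rich cells the WT libraries overlapped between the ages, with 3113 and 2747 CPM at E14.5 and 2614 and 2864 CPM at E16.5, and Grhl3-/- went from 1447 and 1781 to 4363 and 3774 CPM. Over both genotypes its log2 fold change with age was 0.78 ± 0.07 (edgeR adjusted p = 2.0e-06), and 0.67 without the Vtn-rich cells (adjusted p = 1.7e-05). Under the stricter rule for pericytes it was 0.24 and not called (adjusted p = 0.0698). With the WT libraries alone the call was lost (adjusted p = 0.279), and so were those of Actg2, Actn1, Cald1, Flna, Lmod1, Myl9, Tagln, Tpm1 and Vcl. Acta2 (chr19:34241090-34255590) and Actg2 (chr6:83512905-83536265, both GRCm38) are closely alike in coding sequence. Whether reads of either were counted for the other was not tested.

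Promoters of 16 of the 20 genes of the contractile list were found in the RefSeq table (GRCm38.p6). Tagln, Actg2 and Myh11 had no entry there, and Myocd was not among the 16 either. The promoters found were searched for the CArG box, the element that serum response factor is known to bind in smooth muscle genes. The box reads the same on both strands, no mismatch was allowed, and the window was the 250 bases before the start. It was present in Myl9 and Vcl, thus in 2 of 16 (12.5%), against 439 of 27025 promoters (1.62%) in the whole table and 111 of 7547 (1.47%) among genes tested here. A match is a description of the letters and not a bound site. The windows are shown for both matches and for Acta2, the most abundant of the list, which has no exact match in this window. Near matches, such as ccctatatgg in the Acta2 window, were not counted. They are chr19:34255374-34255623 on the minus strand for Acta2, chr2:156775214-156775463 on the plus strand for Myl9, and chr14:20929148-20929397 on the plus strand for Vcl. Capitals mark the box, which begins 161 bases before the start in Myl9 and 227 in Vcl.
Acta2: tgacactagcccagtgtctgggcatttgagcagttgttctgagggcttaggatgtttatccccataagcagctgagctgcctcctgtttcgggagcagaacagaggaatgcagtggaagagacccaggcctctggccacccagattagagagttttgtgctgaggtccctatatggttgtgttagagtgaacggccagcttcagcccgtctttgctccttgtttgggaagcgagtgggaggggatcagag
Myl9: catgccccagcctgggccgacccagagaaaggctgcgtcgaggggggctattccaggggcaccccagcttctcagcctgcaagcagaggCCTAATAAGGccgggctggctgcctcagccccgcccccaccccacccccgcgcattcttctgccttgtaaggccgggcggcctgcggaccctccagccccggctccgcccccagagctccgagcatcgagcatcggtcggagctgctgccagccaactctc
Vcl: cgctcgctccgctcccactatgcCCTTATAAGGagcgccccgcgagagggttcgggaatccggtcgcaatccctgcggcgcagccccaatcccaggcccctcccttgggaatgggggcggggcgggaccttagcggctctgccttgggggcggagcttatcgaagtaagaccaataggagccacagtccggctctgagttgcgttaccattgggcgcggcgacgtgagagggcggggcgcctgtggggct
Myl9, the regulatory light chain of myosin, stood at 1307, 1100, 826 and 1026 normalised CPM at E14.5 and 1368, 1400, 1912 and 1666 at E16.5, WT libraries first, a log2 fold change of 0.58 ± 0.08 (edgeR adjusted p = 2.1e-04). Vcl, the adhesion protein vinculin, rose by 0.57 ± 0.09 on the log2 scale (edgeR adjusted p = 7.8e-04), from 86.4 to 96.3 up to 115 to 147 normalised CPM.

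Ramp1 and Gja5 rose steeply with age. Ramp1 (chr1:91179822-91225196, GRCm38), the partner protein that makes the receptor for calcitonin gene-related peptide, had 6.48 and 4.65 normalised CPM in WT and 2.82 and 3.84 in Grhl3-/- at E14.5. It had 86.7 and 107 in WT and 79.2 and 114 in Grhl3-/- at E16.5, a log2 fold change of 4.45 ± 0.22 (edgeR adjusted p = 6.0e-08). Ramp1 stayed low elsewhere, at most 4.61 CPM in endothelial-like and 13.6 CPM in fibroblast-like cells. Gja5, the gap junction protein connexin 40, had 8.90, 5.98, 0.939 and 1.92 normalised CPM at E14.5 and 53.5, 34.4, 68.1 and 50.3 at E16.5, WT first (log2 fold change 3.90 ± 0.28, edgeR adjusted p = 5.4e-07).

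Of 20 tested genes for G protein and cyclic GMP signalling 10 were higher, none was lower, and the median log2 fold change was 0.52. Among all genes tested 11.2% were higher and 8.29% lower. The angiotensin receptor Agtr1a rose by 1.25 ± 0.12 on the log2 scale (edgeR adjusted p = 9.4e-06), and the vasopressin receptor Avpr1a rose too (edgeR adjusted p = 4.2e-05). Agtr1a stood between 45.3 and 78.4 normalised CPM at E14.5 and between 149 and 168 at E16.5, and Avpr1a between 19.7 and 28.8 and between 47.1 and 75.1.

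Other pericyte markers were split. Of 19 tested genes 9 were higher at E16.5 and 3 were lower, with a median of 0.22, beside 11.2% and 8.29% of all genes tested. Ndufa4l2, an inhibitor of mitochondrial complex I, had 979, 811, 775 and 858 normalised CPM at E14.5 and 1972, 1992, 1718 and 1753 at E16.5, WT first (log2 fold change 1.12 ± 0.07, edgeR adjusted p = 1.7e-07). Ndufa4l2 also moved in fibroblast-like cells, from 11.4 to 21.1 CPM up to 121 to 233. The amine oxidase Aoc3 rose by 2.14 ± 0.13 (edgeR adjusted p = 1.9e-07), from at most 47.8 normalised CPM at E14.5 to between 121 and 168 at E16.5.

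Heyl, Foxf2 and Rgs4 were the 3 lower markers. Heyl had 217, 200, 227 and 222 normalised CPM at E14.5 and 151, 142, 144 and 133 at E16.5, WT first (log2 fold change -0.60 ± 0.07, edgeR adjusted p = 5.5e-05). Foxf2 had 46.1 normalised CPM in the first WT library at E14.5 and 4.48 to 11.3 in the other 3, so the library that stood apart lay above the rest. Its log2 fold change was -2.13 (edgeR adjusted p = 0.0369), and without the Vtn-rich cells it was -1.02 and no longer called (adjusted p = 0.248). Rgs4 moved from -1.97 to -1.48 without them and stayed called. The first WT library at E14.5 lay above the other E14.5 libraries for Higd1b as well, with 236 normalised CPM against 34.5 to 51.6. It fell among the 181 to 242 of the E16.5 libraries. The log2 fold change of Higd1b was 1.54 (edgeR adjusted p = 0.0073), and 2.59 without the Vtn-rich cells (adjusted p = 4.4e-08).

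The genes of the rule are given as a description, since they chose the cells. Rgs5 had 1583 and 858 normalised CPM in WT and 934 and 1081 in Grhl3-/- at E14.5, and 1463, 1451, 1652 and 1613 at E16.5. Notch3 had 151, 126, 154 and 131 normalised CPM at E14.5 and 249, 234, 254 and 265 at E16.5, WT first. The ages did not overlap for Notch3, while the first WT library at E14.5 lay among the E16.5 values for Rgs5. Without the Vtn-rich cells Rgs5 stood at 1065 and 869 CPM in WT and 893 and 1040 in Grhl3-/- at E14.5, below the 1391 to 1562 of the E16.5 libraries.

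The lists for the pathways that join pericytes to endothelium held genes called in either direction, with counts to be read beside the 11.2% of all genes that were higher and the 8.29% that were lower. In the Notch list 3 of 14 were higher, the targets Hes1 and Nrarp and the modifier Lfng, and Rfng was lower. In the PDGF, angiopoietin and VEGF list Angpt2 and Flt1 were higher and Nrp2, Vegfa and Vegfc lower, of 14. Angpt2, the ligand that loosens vessels by opposing Angpt1, rose by 1.68 ± 0.24 on the log2 scale (edgeR adjusted p = 2.7e-04), from 5.67 to 16.9 up to 32.1 to 42.1 normalised CPM. Angpt2 and Flt1 were lower in pericytes than in endothelial-like cells, and the part of endothelial RNA in their pericyte values was not tested. Vegfc, the lymphatic growth factor, fell from 47.8 to 62.1 down to 24.4 to 28.2 normalised CPM (log2 fold change -1.09 ± 0.13, edgeR adjusted p = 6.8e-05). In the TGF-beta and BMP list Id1, Tgfb3 and Tgfbr3 were higher and Smad3 lower, of 18. With such small counts nothing particular to these lists is read from them.

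Most genes of the basement membrane and interstitial matrix lists were higher at E16.5. Of 19 basement membrane genes 12 were higher and 1 lower, Lama4, with a median of 0.69. Of 20 interstitial matrix genes 13 were higher and none lower, with a median of 0.64. Both counts stand beside 11.2% of all genes tested that were higher and 8.29% that were lower. Col4a1, a chain of basement membrane collagen, had 533, 381, 530 and 546 normalised CPM at E14.5 and 1112, 1083, 911 and 1003 at E16.5, WT first (log2 fold change 1.05 ± 0.09, edgeR adjusted p = 2.7e-06). Postn, the matricellular protein periostin, rose by 1.53 ± 0.09 (edgeR adjusted p = 1.7e-07), from 91.1 to 153 up to 306 to 391 normalised CPM. Both lists also stood higher in fibroblast-like cells at E16.5. The basement membrane list summed to 4586 to 5149 CPM there at E14.5 and 8623 to 9474 CPM at E16.5, and to 3724 to 4400 CPM and 6163 to 6519 CPM in pericytes. The interstitial matrix list in fibroblast-like cells went from 16020 to 18000 CPM at E14.5 up to 31140 to 33840 CPM at E16.5. In pericytes the interstitial sum was 3955 to 4889 CPM and 5534 to 7922 CPM. Fibroblast markers moved with these lists in pericytes, with Col1a1, Dcn, Dlk1, Dpt, Lum and Twist2 higher and Crabp1 lower of 11 tested and a median of 0.66. The part of fibroblast RNA in the pericyte values was not tested.

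Mdk, Uchl1 and Tubb2b were among the named genes that fell with age. Mdk, the growth factor midkine, had 457, 405, 282 and 270 normalised CPM at E14.5 and 99.7, 79.0, 89.2 and 112 at E16.5, WT first (log2 fold change -1.86 ± 0.10, edgeR adjusted p = 6.0e-08). Uchl1, a ubiquitin hydrolase abundant in neurons, fell by 2.36 ± 0.17 on the log2 scale (edgeR adjusted p = 4.3e-07), from 78.9 to 140 down to 16.9 to 21.0 normalised CPM. The tubulin Tubb2b fell by 1.48 ± 0.08 (edgeR adjusted p = 6.6e-08), from 372 to 428 down to 118 to 157. Mdk and Tubb2b ran lower at E16.5 in fibroblast-like and endothelial-like cells too, Mdk with 760 to 1042 CPM at E14.5 and 314 to 344 at E16.5 in fibroblast-like cells. Of the cell cycle lists 13 of 42 S phase genes and 10 of 52 G2M genes were lower and none higher, with medians of -0.25 and -0.14. The other 29 and 42 genes were not called, and 8.29% of all genes tested were lower.

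Several lists of other cell types held genes that were higher at E16.5 among the members, where 11.2% of all genes tested were higher and 8.29% lower. All 8 tested keratinocyte genes were higher, with a median log2 fold change of 2.55, and their summed level in pericytes ran from 75.6 to 267 CPM at E14.5 and from 285 to 3598 at E16.5. Haemoglobin and other blood genes summed to 1244 to 11130 CPM and to 10500 to 25630 CPM, ranges that overlap, with 5 genes higher and 3 lower (Hba-a2, Hba-x and Hbb-y). Macrophage and mast cell markers gave 5 higher of 9 and skeletal muscle markers 4 of 5, while none of the 3 Schwann cell and neural crest markers tested was called. Endothelial markers gave 3 higher and 2 lower of 9, with a median of -0.01. The endothelial list stood at 263 to 447 CPM in pericytes, against 4406 to 6281 in endothelial-like cells. Fabp4 was read at 2915 to 4728 CPM in endothelial-like cells at E16.5 and rose in pericytes too (log2 fold change 3.33 ± 0.53, edgeR adjusted p = 6.3e-04), a call that was lost with DESeq2. None of the defining keratinocyte, blood, macrophage or muscle markers was at 0 over all pericytes. Pericytes with a high doublet score numbered 3 to 5 in each E14.5 library, 39 and 29 in the WT and 12 and 17 in the Grhl3-/- libraries at E16.5. The parts of free RNA and of doublets were not tested.

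**Figure D3:**
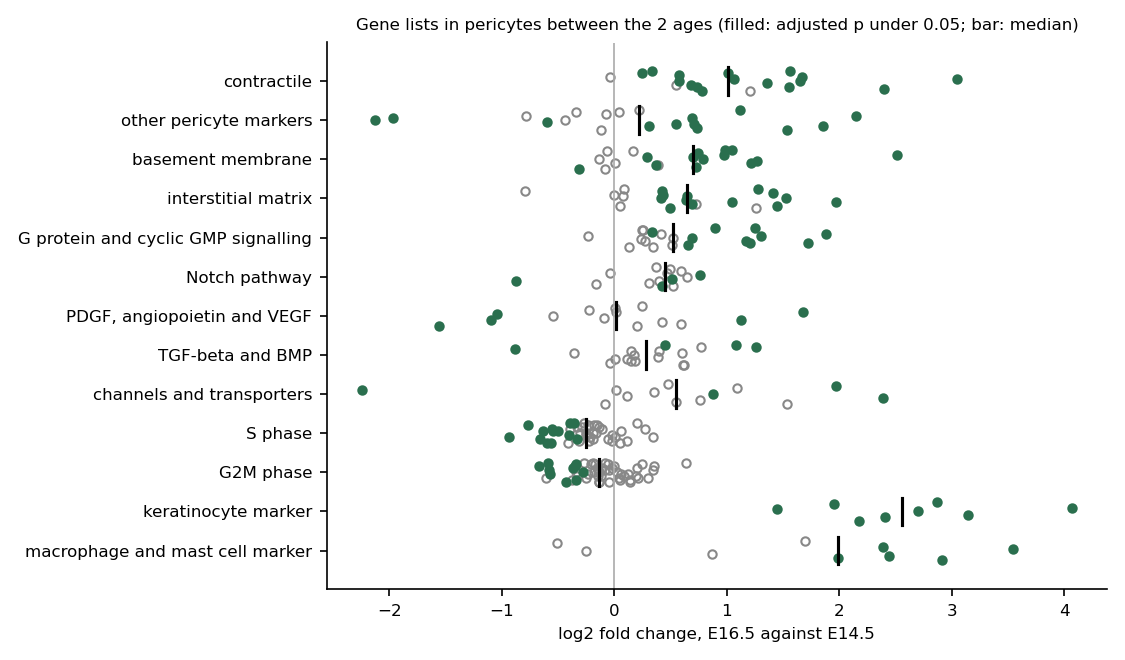
Log2 fold change of each tested gene from E14.5 to E16.5 in pericytes, by gene list, each point 1 gene. The contractile list has a median of 1.01 and the keratinocyte list 2.55, while the S phase list lies at -0.25.

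Within the age the Grhl3-/- libraries differed from WT in few genes. At E14.5, 5 of 9824 genes were higher (0.0509%) and 12 lower (0.122%) in edgeR's quasi-likelihood test. At E16.5, 12 were higher (0.122%) and 22 lower (0.224%). The balance turned at E16.5 to 16 higher and 10 lower without the first Grhl3-/- library, 9 and 6 without the second, and 18 and 16 without cells of high doublet score. At E14.5 it was 10 and 10 under the stricter rule, 4 and 3 without the first Grhl3-/- library and 4 and 2 without the second. Other fits leaned further to lower genes, with 8 higher and 23 lower at E14.5 without cells of high doublet score. With 2 libraries against 2, 36.1% and 36.0% of all genes did not overlap between the genotypes, so non-overlap alone says little here.

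At E14.5 the actins Acta2 and Actg2 and the secreted proteins Sfrp2, Col8a1 and Fmod were lower in Grhl3-/- pericytes. Acta2 stood at 2574 and 2437 normalised CPM in WT against 1415 and 1644 in Grhl3-/-, a log2 fold change of -0.71 ± 0.09 (edgeR adjusted p = 0.0035). Actg2, the enteric smooth muscle actin, had 125 and 137 against 32.9 and 33.3 (-1.98 ± 0.23, edgeR adjusted p = 0.0014). These were the 2 called genes of the 19 contractile genes tested, whose median was -0.32. Lists of other cell types moved in the same comparison. Medians were -0.58 for endothelial, -0.42 for fibroblast and 2.51 for macrophage and mast cell markers, with no gene of these lists called. The blood list had a median of 1.97, with Hbb-bt called higher of 8 tested. Their part in the contractile values was not tested. Tagln, transgelin, had 329 and 282 against 212 and 168 and was not called (edgeR adjusted p = 0.123). The Acta2 call was lost without the first Grhl3-/- library (adjusted p = 0.155) and the Actg2 call without the second (adjusted p = 0.063). Both calls were kept without the Vtn-rich cells.

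Sfrp2, a secreted Wnt modulator, stood at 68.8 and 71.8 normalised CPM in WT and at 15.96 and 16.01 in Grhl3-/- at E14.5 (log2 fold change -2.13 ± 0.26, edgeR adjusted p = 0.0018). Col8a1, a short-chain collagen of vessel walls, had 128 and 112 against 23.5 and 38.4 (-1.90 ± 0.20, edgeR adjusted p = 0.0012). Fmod, the collagen-binding fibromodulin, had 76.1 and 76.4 against 19.7 and 19.8 (-1.94 ± 0.22, edgeR adjusted p = 0.0014). Col8a1 kept its call under every alternative tried, while Fmod lost it without the second Grhl3-/- library (adjusted p = 0.057). Sfrp2 lost it without either Grhl3-/- library and without the Vtn-rich cells (adjusted p = 0.068), where WT stood at 40.8 and 46.0 CPM and Grhl3-/- at 16.6 and 16.3. In fibroblast-like cells Sfrp2 was also lower, at 576 and 849 CPM in WT and 423 and 358 CPM in Grhl3-/-.

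The imprinted growth regulators Igf2 and Cdkn1c were lower as well, Igf2 with 270 and 260 against 156 and 153 normalised CPM and Cdkn1c with 949 and 658 against 401 and 382. Their log2 fold changes were -0.78 ± 0.11 and -1.04 ± 0.17 (edgeR adjusted p = 0.0080 and 0.021). Both calls were lost without either Grhl3-/- library and without the first WT library, with adjusted p of 0.0536 to 0.282. Cdkn1c ran lower in fibroblast-like cells of Grhl3-/- as well, at 3588 and 3857 CPM against 2490 and 2666. Cav1, the coat protein of caveolae, and Tnmd, tenomodulin, were called lower and lost their calls in most leave-one-out fits.

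Of the higher genes at E14.5, Arf5, a small GTPase of vesicle traffic, had 202 and 206 normalised CPM in WT and 327 and 371 in Grhl3-/- (log2 fold change 0.78 ± 0.11, edgeR adjusted p = 0.0061). Arf5 was likewise higher in fibroblast-like cells, with 261 and 280 against 484 and 498 CPM, and in endothelial-like cells, with 195 and 214 against 363 and 368 CPM. The stress factor Atf3 had 61.5 and 55.1 against 103 and 131 normalised CPM (1.03 ± 0.17, edgeR adjusted p = 0.021). Gm13305, which was named after its values were seen, had 0.810 and 0.664 normalised CPM in WT and 97.7 and 99.2 in Grhl3-/- at E14.5. At E16.5 it stood between 0.513 and 1.73 in all 4 libraries.

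At E16.5, in contrast, 5 contractile genes were higher in Grhl3-/- pericytes. Acta2 had 2706 and 2879 normalised CPM in WT and 4386 and 3734 in Grhl3-/- (log2 fold change 0.54 ± 0.09, edgeR adjusted p = 0.0194). Actg2 had 170 and 115 against 346 and 262 (1.08 ± 0.16, edgeR adjusted p = 0.0087), and Tagln 408 and 334 against 741 and 613 (0.87 ± 0.14, edgeR adjusted p = 0.013). Tropomyosin Tpm1 had 758 and 704 against 1060 and 1096 (0.56 ± 0.09, edgeR adjusted p = 0.0164). With calponin Cnn1 these made 5 higher and none lower of 19, with a median of 0.27.

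The E16.5 calls leaned on single libraries. Acta2 lost its call without the first or second WT library or the first Grhl3-/- library, with adjusted p of 0.161, 0.226 and 0.259, and with a stricter rule for pericytes (adjusted p = 0.086). Tagln lost it without the second WT library (adjusted p = 0.302) and without the first Grhl3-/- library (adjusted p = 0.12). Tgfb3, a TGF-beta ligand, and the chemokine Ccl11 were called higher at 72.0 and 79.0 against 41.4 and 42.9 normalised CPM and at 222 and 224 against 131 and 155, and both calls were lost with DESeq2.

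Keratinocyte genes led the lower genes at E16.5. Lor, loricrin of the cornified envelope, had 193 and 348 normalised CPM in WT pericytes and 6.09 and 2.05 in Grhl3-/- (log2 fold change -6.04 ± 0.36, edgeR adjusted p = 1.5e-06). The same held in other cells, since Lor had 185 and 284 against 14.8 and 3.09 CPM in fibroblast-like cells. After thinning to 2000 UMIs, Krt10 UMIs were found in 40.8% and 54.5% of WT pericytes and in 20.8% and 14.8% of Grhl3-/- pericytes, and in 45.0% and 51.9% against 21.0% and 15.4% of fibroblast-like cells. The shares in pericytes were close to those in fibroblast-like cells, a cell type that should lack the gene, and no Krt10 expression by pericytes is read from them. Without cells of high doublet score the log2 fold change of Krt10 moved from -2.95 to -1.37 and that of Krt1 from -3.51 to -1.71, and both stayed called (edgeR adjusted p = 2.3e-04 and 4.8e-04).

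**Figure D4:**
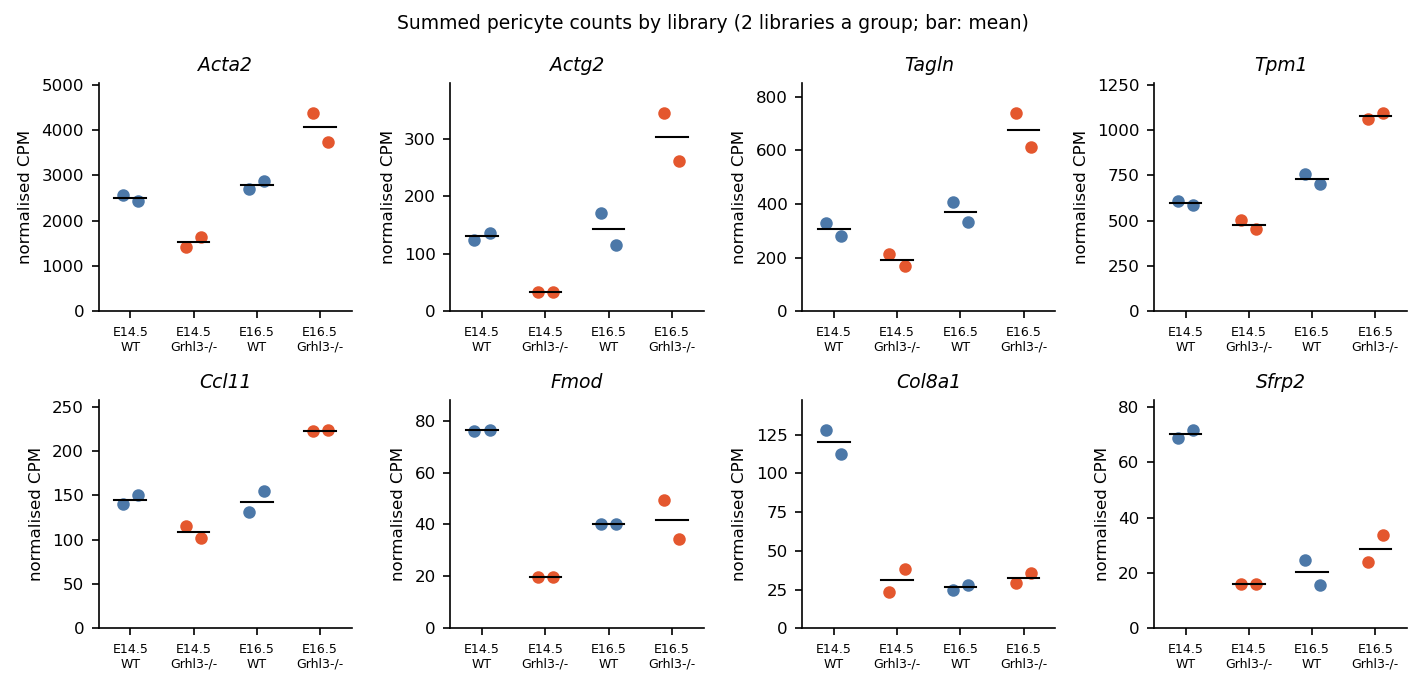
Normalised CPM of 8 genes in pericytes of each library, by age and genotype. Acta2, Actg2 and Tagln of Grhl3-/- lie below WT at E14.5 and above WT at E16.5.

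The genotype effect was then compared between the ages by an interaction term, which asks whether the difference of Grhl3-/- from WT is the same at E16.5 as at E14.5. It was more positive at E16.5 in 14 genes (0.143%) and more negative in 6 (0.0611%), and under the stricter rule in 5 and 7. Acta2 differed by 1.25 ± 0.13 on the log2 scale (edgeR adjusted p = 8.7e-04) and Actg2 by 3.06 ± 0.28 (edgeR adjusted p = 3.1e-04). Tagln differed by 1.56 ± 0.20 (edgeR adjusted p = 0.0074). Cnn1, Tpm1 and Tpm2 were called too, which made 6 of 19 contractile genes and none in the other direction, with a median of 0.75. The list of dissociation stress genes had a median of -0.52 in the same comparison, with Atf3 called in the negative direction of 19 tested, and its median was 0.46 at E14.5 and -0.10 at E16.5 between the genotypes. In the interaction the median was 0.53 for endothelial and -2.12 for macrophage and mast cell markers, with no gene of either list called. The part of these lists in the contractile values was not tested. The calls of Acta2 and Actg2 were kept under every alternative tried, with the largest adjusted p at 0.0219 and 0.0153, whereas Tagln lost its call without the second Grhl3-/- library at E14.5 (adjusted p = 0.0858). Tpm1 lost it without any of 5 single libraries (adjusted p from 0.0504 to 0.118). Age comparison and genotype comparisons use the same libraries and are not independent.

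The cells behind the Acta2 values were unequal. After thinning to 2000 UMIs, between 31.3% and 51.0% of the pericytes of a library held no Acta2 UMI. At least 10 UMIs were held by 18.1% and 17.2% of WT and 4.82% and 10.1% of Grhl3-/- pericytes at E14.5, and by 19.5% and 21.2% of WT and 30.6% and 22.4% of Grhl3-/- pericytes at E16.5. Without the Vtn-rich cells these shares were 27.6% and 18.8% in WT and 4.94% and 10.8% in Grhl3-/- at E14.5, and 18.96% and 21.6% in WT and 31.0% and 22.97% in Grhl3-/- at E16.5. The first WT library at E14.5 then lay above both WT libraries at E16.5. The limit of 10 cuts a range, with 4 to 11 cells of each library close to it. Cells with any Acta2 UMI after thinning, a lower limit than 10, made up 3.19% to 12.9% of fibroblast-like and 0% to 4.38% of endothelial-like cells. These shares differ between the kinds of cell, and how much of them is background was not tested.

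Acta2-rich pericytes held 9002 and 9268 CPM of Acta2 in WT and 7344 and 8201 in Grhl3-/- at E14.5, where they numbered 21 and 17 in WT and 4 and 11 in Grhl3-/-, and 11010 and 10930 in WT and 12470 and 13440 in Grhl3-/- at E16.5, from 42 to 56 cells a library. The remaining pericytes held 880 and 1111, 1026 and 997, 678 and 630, and 464 and 604 CPM in the same order of groups. The cells were split by their own Acta2 UMIs, so these levels do not show in which cells the genotypes differ. Rich cells also held 957 to 2349 CPM of Tagln, against 40.6 to 137 in the remaining cells, and less Kcnj8, the potassium channel subunit of the rule, with 195 to 351 against 545 to 709 CPM. At E16.5 they held 148 to 262 CPM of Gja5, against 2.84 to 9.8 in the remaining cells. Myh11 stood at 483 to 614 CPM in them and at 16.7 to 44.45 in the remaining cells.

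**Figure D5:**
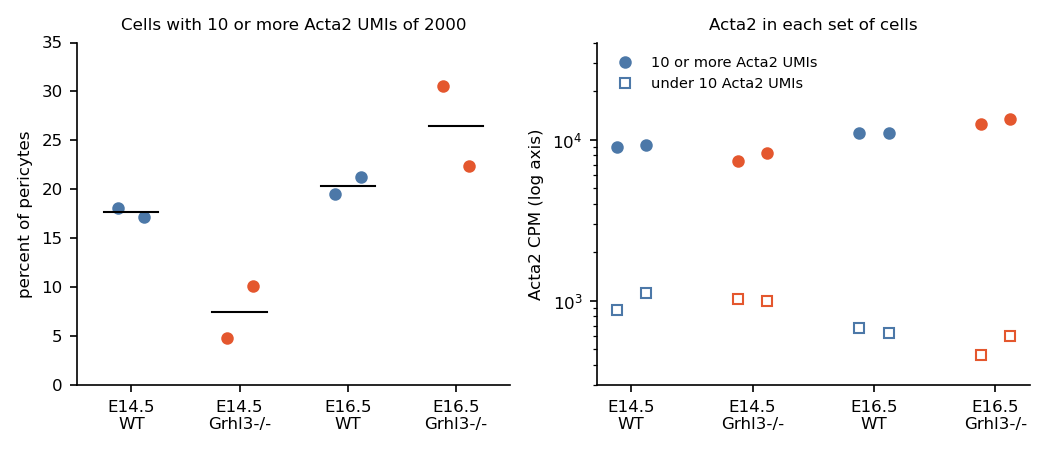
Percent of pericytes with at least 10 Acta2 UMIs after thinning, and Acta2 CPM (log axis) in those cells and in the remaining pericytes, each point 1 library. In Grhl3-/- the percent is 4.82 and 10.1 at E14.5 and 30.6 and 22.4 at E16.5, while WT lies between 17.2 and 21.2, or between 18.8 and 27.6 without the Vtn-rich cells, which the plot includes.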

How the data were processed

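UMI counts per gene and cell were deposited by the authors as raw 10x 3' v2 matrices of called cells, on 27998 gene identifiers, without normalization. The submitters' processing notes name Cell Ranger 1.3.1 and mm10. A cell was kept with 600 to 4800 genes seen and no more than 10% of its UMIs from mitochondria. Members and gene lists were chosen with earlier results of these data known. Doublets were left in, and Scrublet scores from scanpy 1.11.5 served as an alternative. Free RNA was not corrected for.

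UMIs of the pericytes of each library were summed and compared with edgeR 4.0.16 (R 4.3.3), with TMM normalization, its expression filter, 1 fit over the 4 groups of age and genotype, the quasi-likelihood test and Benjamini-Hochberg adjustment over all genes at 0.05. Normalised CPM use TMM factors, and CPM alone use the summed UMIs. Shares were compared by exact permutation over libraries in Python 3.11.15 with scipy 1.17.1. DESeq2 1.42.0 was an alternative. The pipeline was tested on simulated data. Genes named are the 10 largest changes in each direction among called genes that average 5 or more in log2 CPM and whose groups do not overlap, without sex-linked and haemoglobin genes, and list members at that level. Gene coordinates are GENCODE M21 on GRCm38, and promoters RefSeq. Same-numbered libraries were not treated as pairs in the main fit, and a replicate block was an alternative. Shared barcodes were counted, and between 52 and 119 were common to a pair of libraries. A gene withheld for evaluation is not reported here.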

Additional observations from a re-analysis of the deposited data

Results flagged for a closer look

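The difference between Grhl3-/- and WT changed from E14.5 to E16.5 in 15 named genes by the interaction term of edgeR, given here as the log2 effect at E16.5 minus that at E14.5. It was positive for Actg2 (3.06), Sfrp2 (2.62), Col8a1 (2.22), Fmod (2.00), Tnmd (1.91), Tagln (1.56), Acta2 (1.25), Ccl11 (1.07), Igf2 (0.902) and Tpm1 (0.875). It was negative for Krt1 (-5.81), Krt10 (-3.93), Crabp1 (-1.77), Atf3 (-1.37) and Arf5 (-0.822). Of the genes with a positive value, Actg2 and Acta2 kept their calls under every alternative tried and each of the others lost it under at least 1. Krt1 and Krt10 are keratinocyte genes that were also read in fibroblast-like and endothelial-like cells.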

How the results depend on the processing

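Depth and library number limit these results: 2 libraries of each genotype and age are too few for an exact permutation test at 1 age, and 83 to 277 pericytes stand behind a library. No called value changed its sign under any alternative. The difference of Grhl3-/- from WT in the share of pericytes, not called at -0.01445 points, ran from -0.1536 to 0.1247 with 1 library left out and was 0.1541 without the Vtn-rich cells, 0.1143 without cells of high doublet score, 0.1086 with the 5% limit on mitochondrial UMIs and 0.008108 after thinning. The share of pericytes differed by 1.152 points with age in WT libraries alone, and by 1.481 to 1.769 with 1 library left out. The dividing share differed by -2.83 points with at least 3 transcripts, and by -12.7 to -7.664 with 1 library left out, where p was 0.0571 in the exact permutation test without any 1 E16.5 library.

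Genes called with age numbered 821 with DESeq2 and 641 with WT libraries alone. Without the filter on low counts 233 genes differed by genotype at E14.5, 190 at E16.5 and 216 in the interaction. At E14.5 the count was 31 without cells of high doublet score and 39 with only the groups compared, and it ran from 6 to 64 with 1 library left out, 64 without the second WT library, 7 without the first and 6 without the second Grhl3-/- library. At E16.5 it ran from 9 to 43, 9 without the second WT library and 15 without the second Grhl3-/- library, and 22 without either Grhl3-/- library of E14.5. The interaction count was 12 under the stricter rule and 5 to 44 with 1 library left out: 13, 44, 6 and 5 without the first and second WT and the first and second Grhl3-/- library of E14.5, and 12 and 13 without the second WT and first Grhl3-/- library of E16.5. Against fibroblast-like cells 3688 genes differed with sums reduced to the smallest total. Of the alternatives for single named genes, 1731 kept a call, 223 lost one and 20 gained one, and 498 stayed uncalled. The causes were not tested.

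A replicate block gave 32 genes at E14.5, 57 at E16.5 and 38 in the interaction, against 17, 34 and 20 in the main fit. Deviations of same-numbered libraries from their group means had correlations of 0.086 at E14.5 and -0.0861 at E16.5 over 4170 genes. With 2 libraries in a group these correlations cannot decide whether the numbers pair the libraries. Without the Vtn-rich cells, chosen after seeing the data, the counts were 1138 higher and 917 lower with age, 2 and 13 at E14.5, 14 and 28 at E16.5, and 19 and 10 in the interaction, and the shares differed with age by 1.73 points for pericytes and -12.0 for dividing cells.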
